A study of Mus musculus with 6 samples.

Results

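Transcript levels of 9 transcription factors of the somite and its ventral derivative, the sclerotome, were measured beside the dorsal aorta of the mouse embryo. The 9 genes are Pax1, Pax9, Nkx3-2, Meox1, Meox2, Foxc1, Foxc2, Twist1 and Twist2. They were listed by name, and each matched 1 probe set by its platform gene symbol, so 9 of the 24675 genes with a symbol in the table are described. The embryos were of the C57Bl/6 strain at embryonic day 10.5 and the labels name no mutant allele and no treatment for either group. Both groups were cut from frozen sections by laser microdissection on position alone. The dorsal group was the tissue from the notochord down to the aortic roof (3 arrays), and the ventral group was the tissue beneath the aorta (3 arrays). Per the labels, dorsal and ventral tissue were taken from the same embryos, and the number of embryos behind each sample is not given. Each sample began with 200 to 1000 pg of RNA and was amplified before it was labelled for an Affymetrix mouse Gene 2.0 ST array.

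Somites are blocks of paraxial mesoderm that flank the neural tube and notochord. Sonic hedgehog from the notochord and floor plate turns their ventral part into sclerotome, the mesenchyme that surrounds the notochord and builds the vertebrae and ribs, while the dorsal part becomes dermomyotome and then skin and muscle. Meox1 and Meox2 are homeobox factors of the early somite, Foxc1 and Foxc2 are forkhead factors of paraxial mesoderm and its mesenchyme, and Pax1 and Pax9 are paired-box factors induced by hedgehog in sclerotome. Nkx3-2 (also called Bapx1) is a homeobox repressor downstream of Pax1 and Pax9 that favours cartilage, and Twist1 and Twist2 are basic helix-loop-helix factors of mesenchyme. The dorsal cut lies next to the notochord, where sclerotome cells gather at this age, and the comparison asks which of these factors differ between the tissue above and the tissue below the aorta.

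The promoters of 4 members are shown because 3 of them (Twist1, Nkx3-2 and Foxc1) had lower ventral values in every pair of equally numbered arrays, and Twist2 is the paralogue of Twist1 without that pattern. Promoters were listed in the RefSeq table of build GRCm38.p6 for 7 of the 9 members. Foxc2 was also lower ventrally in every pair, but no promoter was listed for it or for Meox1. Each sequence is the 250 bases before the gene's start, 5′ to 3′ on the gene's own strand. Capitals mark matches on either strand to 4 motifs: CCAAT, which nuclear factor Y binds; TATAA, the core of the box that positions the start; CANNTG, the E-box that Twist proteins bind with their partners; and GACCACCCA, which the hedgehog effectors of the Gli family bind.
Twist1, chr12:33957421-33957670, plus strand: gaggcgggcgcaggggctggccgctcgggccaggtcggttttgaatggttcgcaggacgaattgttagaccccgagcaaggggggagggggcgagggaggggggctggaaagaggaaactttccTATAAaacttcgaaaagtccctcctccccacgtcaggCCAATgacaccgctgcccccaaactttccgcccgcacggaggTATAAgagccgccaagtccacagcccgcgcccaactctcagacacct
Twist2, chr1:91801211-91801460, plus strand: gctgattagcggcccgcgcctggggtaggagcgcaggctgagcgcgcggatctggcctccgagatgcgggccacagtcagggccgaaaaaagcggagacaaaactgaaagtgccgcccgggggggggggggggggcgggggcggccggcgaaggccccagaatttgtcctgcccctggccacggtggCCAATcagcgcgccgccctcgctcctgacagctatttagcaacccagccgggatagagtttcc
Nkx3-2, chr5:41764221-41764470, minus strand: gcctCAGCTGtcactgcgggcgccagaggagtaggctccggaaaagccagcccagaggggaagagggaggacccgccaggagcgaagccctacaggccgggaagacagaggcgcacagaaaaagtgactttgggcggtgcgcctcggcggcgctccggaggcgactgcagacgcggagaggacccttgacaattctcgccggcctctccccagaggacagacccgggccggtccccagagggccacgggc
Foxc1, chr13:31806396-31806645, plus strand: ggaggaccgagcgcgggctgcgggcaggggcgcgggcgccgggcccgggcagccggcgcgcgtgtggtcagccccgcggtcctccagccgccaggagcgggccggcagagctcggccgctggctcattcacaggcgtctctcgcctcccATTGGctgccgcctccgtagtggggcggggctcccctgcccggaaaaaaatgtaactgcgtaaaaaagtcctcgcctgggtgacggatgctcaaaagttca

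Twist1 held 2 matches to TATAA, 126 and 47 bases before its start, and 1 to CCAAT. The Twist2 window held 1 CCAAT match and no TATAA match, so the paralogues share 1 of these motif types. Nkx3-2 held 1 E-box, 246 bases before its start, and Foxc1 held 1 CCAAT match on the opposite strand. Over all 7 listed promoters, 4 held CCAAT, 3 an E-box, 2 TATAA and 0 the Gli motif. Of all 32851 promoter windows of the same length, 33.8% held CCAAT, 66.2% an E-box, 22.8% TATAA and 0.225% the Gli motif. The TATAA and CCAAT motifs did not overlap each other in the Twist1 window. A match is a description of the letters, and the arrays do not measure binding.

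The signals were RMA values in log2 units, so a difference of 1 is a doubling of signal. Signals of different genes come from different probes and are not compared as amounts. The arrays had medians between 3.20 and 3.28. No detection calls were used here. As a description of the low range, the 95th percentile of 1365 olfactory and vomeronasal receptor genes, which have no known part in this tissue, lay between 4.62 and 4.95 by array. Dorsal values scattered more, with a median SD per gene of 0.26, against 0.18 for ventral values. Ventral array 1 stood apart in several of the 127 genes listed here. In 5 of them, Twist1 included, it lay more than 1 log2 unit beyond the other 5 arrays, against 2 genes for dorsal array 1, 1 each for dorsal array 2 and ventral array 3 and 0 for the remaining arrays; over all genes its share was 0.669%, within the 0.373 to 0.904% of the 6 arrays. Sox2, a transcription factor of neural progenitors, was at 7.61 in ventral array 1 and between 2.20 and 2.73 in the others. Tcf12, which encodes an E protein, was at 6.20 there against 3.90 to 4.50. The embryonic globins Hba-x and Hbb-y were at 7.08 and 7.07 there, against 9.41 to 12.11 and 8.48 to 10.49. In dorsal array 1, Snai2, a repressor of mesenchymal and neural crest cells, was at 6.36 against 3.14 to 3.88. The genes of these sentences were chosen after their values were seen.

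Of the 8 neural tube markers the mean was 4.22 in ventral array 1, 3.07 and 3.18 in the other ventral arrays and 3.34 to 3.56 in the dorsal arrays. Sox2, at 7.61 there and 2.20 to 2.73 elsewhere, weighed most in that mean. In ventral array 1, 3 of the markers (Sox2, Pax6 and Neurog1) were highest, and the others were not. Sox1, a neural progenitor factor, had means of 3.71 and 3.33 in dorsal and ventral tissue, and the ventral neural tube factors Nkx6-1 and Nkx2-2 had means of 3.83 and 3.56 and of 2.99 and 2.61. The erythroid markers, 6 genes, had a mean of 5.60 in ventral array 1, the lowest of the arrays, 6.55 and 7.69 in the other ventral arrays and 6.16 to 7.32 in the dorsal arrays. Hbb-bh1, an embryonic globin, had means of 8.63 ± 1.39 and 9.01 ± 2.04 (SD, n = 3 each), Klf1, an erythroid factor, 3.83 and 4.15, and Epor, the erythropoietin receptor, 4.08 and 4.30. The low mean of ventral array 1 came from the globins, as Hbb-bh1 (7.03), Hba-x and Hbb-y were all lowest there. Alas2, another of the 6, was highest there (3.81), and Klf1 (4.20) and Epor (4.42) lay within the range of the other arrays. The endothelial markers, 8 genes, had means of 3.10 to 3.19 in dorsal and 3.09 to 3.29 in ventral arrays, near the array medians. Among them the receptors Kdr and Tek had dorsal and ventral means of 3.13 and 3.30 and of 2.55 and 2.59, and the surface proteins Emcn and Esam of 2.90 and 3.03 and of 3.81 and 3.75. The notochord markers, 7 genes, had means of 3.99 to 4.45 in dorsal and 4.01 to 4.16 in ventral arrays. Noto, the homeobox gene that defines notochord, was at 3.48 to 4.47 in dorsal and 3.61 to 3.98 in ventral arrays. Foxa2, a forkhead factor of notochord and floor plate, was at 3.74 to 4.27 in dorsal and 3.54 to 3.85 in ventral arrays, and Nog, a BMP antagonist, had means of 3.64 and 3.49. Krt18, a keratin of simple epithelia, had means of 5.54 and 5.63 and was the only 1 of the 7 above the receptor percentile in all 6 arrays. The lowest limma adjusted p over the neural tube, erythroid, endothelial and notochord markers was 0.550.

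**Figure D1:**
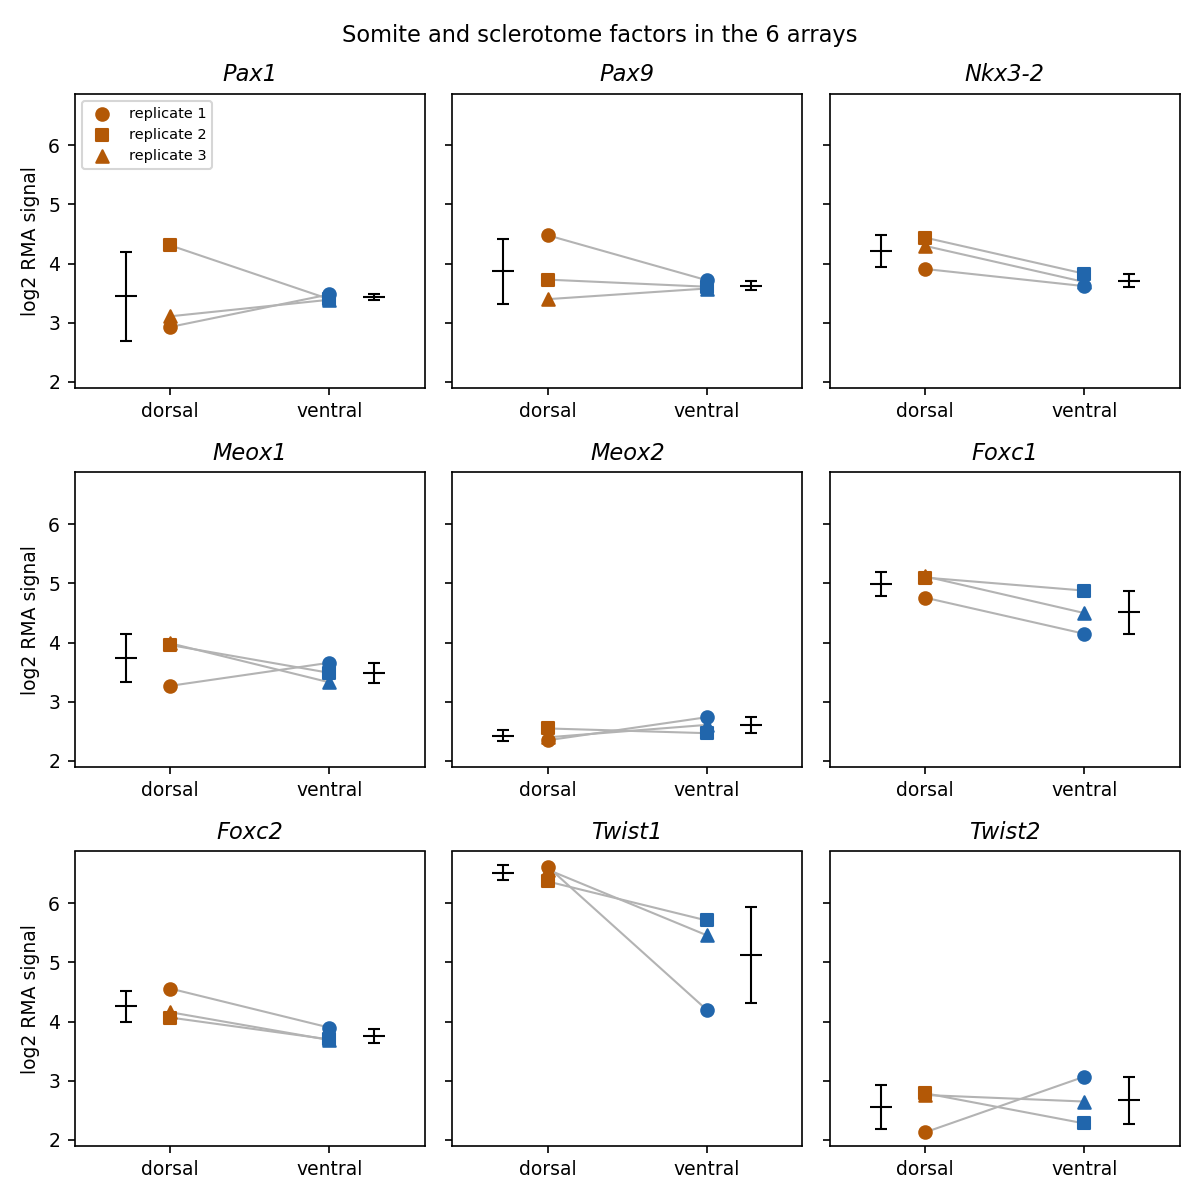
Log2 RMA signal (vertical axis) of each of the 9 members in the 3 dorsal (brown) and 3 ventral (blue) arrays, with a grey line joining arrays of equal replicate number and a black bar for the mean ± SD of each region. Twist1, Nkx3-2 and Foxc2 are higher in every dorsal than in every ventral array, and the other 6 members overlap.

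Of the 9 members, 7 had lower and 2 had higher mean signal in ventral than in dorsal tissue (6 and 3 after cyclic loess or median centring, where Pax1 changed sign), and none passed the test. The clearest difference was that of Twist1, about 2.63-fold higher in dorsal tissue. Foxc1, Foxc2 and Nkx3-2 were 1.40-fold to 1.42-fold higher dorsally. Pax1 and Twist2 differed by less than the SD of either region. In limma, with the replicate number as a block, the adjusted p of the members lay between 0.435 and 0.981. Over all genes limma called 0 of 24675 (0.0%) at an adjusted p of 0.05, while 2522 (10.2%) had an unadjusted p under 0.05. In these bulk samples fewer cells of a type and less RNA per cell cannot be told apart.

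Twist1 (probe set 22160_at), which keeps mesenchymal cells undifferentiated and is needed for cranial neural tube closure and limb growth, had a log2 signal of 6.62, 6.37 and 6.57 in dorsal arrays 1, 2 and 3, while ventral arrays 1, 2 and 3 read 4.20, 5.71 and 5.46. The 3 dorsal values lay close together, the ventral values were spread widely, and the lowest dorsal value was 0.66 above the highest ventral one. In the dorsal arrays Twist1 was brighter than 98.6 to 98.7% of genes, and in the ventral arrays brighter than 84.9 to 97.2%. It exceeded the receptor percentile in 5 arrays, all but ventral array 1.

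The dorsal mean of Twist1 was 6.52 ± 0.13 and its ventral mean 5.12 ± 0.81 (SD, n = 3 each). The log2 difference, ventral minus dorsal, was -1.40 ± 0.35 (SE), with a 95% interval from -2.27 to -0.53. The 3 pairs of equal number gave -2.42, -0.66 and -1.11, so the direction was the same in all 3. The unadjusted limma p was 0.0080, which ranked Twist1 450th of 24675 genes, and the adjusted p was 0.435. An exact permutation test of the 6 values gave a two-sided p of 0.1, the smallest that 3 against 3 arrays allow. This test, here and below, took no account of the replicate numbers that limma used as a block. Ventral array 1, which had the lowest Twist1 value, was also the array with the highest Sox2 and Tcf12 and the lowest Hba-x and Hbb-y signals. Without the 2 arrays numbered 1 the difference was -0.89 in place of -1.40, with an unadjusted limma p of 0.015, and without ventral array 1 alone, in a fit with no block, it was -0.93 (unadjusted p 0.00233). The part of neural or blood cells in the Twist1 value of that array was not tested.

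Twist2 (13345_at), the paralogue that acts in dermis and cartilage mesenchyme, lay low in the signal range. It was at 2.13, 2.79 and 2.76 in the dorsal arrays and 3.07, 2.28 and 2.65 in the ventral arrays. The highest and the lowest of the 6 values came from the 2 arrays numbered 1, and the regions overlapped. The means were 2.56 ± 0.37 and 2.67 ± 0.40 (SD, n = 3 each), a difference of 0.11 with a 95% interval from -0.64 to 0.86 and a limma adjusted p of 0.910. Its direction rested on the arrays numbered 1: without both the difference was -0.31, and with no block it was -0.11 without the dorsal and -0.09 without the ventral array of that number. No array placed Twist2 above 43.1% of genes, so a level near background and a low level cannot be told apart here.

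The forkhead factors Foxc1 and Foxc2 act together in somite formation and in the mesenchyme of bone, kidney and vessels, and Foxc2 also acts in lymphatic vessels. Foxc1 (17300_at) was at 4.76, 5.10 and 5.12 in the dorsal and at 4.15, 4.88 and 4.50 in the ventral arrays. Only ventral array 2 reached into the dorsal range, and Foxc1 exceeded the receptor percentile in 3 dorsal arrays and 1 ventral array. Its means were 4.99 ± 0.20 and 4.51 ± 0.36 (SD, n = 3 each), a log2 difference of -0.48 ± 0.18 (SE) with a 95% interval from -0.93 to -0.04. The unadjusted limma p was 0.0385 and the adjusted p 0.475. Without the block the unadjusted p was 0.0621, so the count of members under 0.05 changes with that choice. Without ventral array 1, in a fit with no block, the difference was -0.30 in place of -0.48.

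Foxc2 (14234_at) was at 4.56, 4.07 and 4.16 in the dorsal and at 3.90, 3.70 and 3.69 in the ventral arrays. The regions did not overlap, with a gap of 0.17 between the lowest dorsal and the highest ventral value. The means were 4.26 ± 0.26 and 3.76 ± 0.12 (SD, n = 3 each), and the log2 difference was -0.50 ± 0.17 (SE), with a 95% interval from -0.92 to -0.07. Pairs 1, 2 and 3 gave -0.66, -0.37 and -0.46. The unadjusted limma p was 0.0289, the adjusted p 0.464 and the two-sided exact permutation p 0.1. In no array did Foxc2 exceed the receptor percentile.

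Nkx3-2 (12020_at), the cartilage-promoting factor of sclerotome, was at 3.91, 4.44 and 4.30 in the dorsal and at 3.62, 3.83 and 3.69 in the ventral arrays. The regions were separated by 0.09, the narrowest of the 3 members without overlap. The means were 4.22 ± 0.27 and 3.71 ± 0.11 (SD, n = 3 each), a log2 difference of -0.51 ± 0.18 (SE) with a 95% interval from -0.94 to -0.07. Pairs 1, 2 and 3 gave -0.30, -0.61 and -0.61. The unadjusted limma p was 0.0293 and the adjusted p 0.464. Nkx3-2 was brighter than 77.6 to 89.2% of genes in the dorsal arrays and 67.7 to 75.6% in the ventral arrays, and exceeded the receptor percentile in none.

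Pax1 and Pax9, the factors that define sclerotome, did not separate the regions. Pax1 (18503_at) was at 2.93, 4.31 and 3.11 in the dorsal and at 3.48, 3.40 and 3.39 in the ventral arrays. Dorsal array 2 was the highest and dorsal array 1 the lowest of the 6, and the ventral values fell between them, close together. The means were 3.45 ± 0.75 and 3.43 ± 0.05 (SD, n = 3 each), and the difference of -0.02 had a 95% interval from -0.79 to 0.75, which at its lower end is a 1.73-fold higher dorsal level. Its direction rested on dorsal array 2: without the 2 arrays numbered 2 the difference was 0.42, and without dorsal array 2 alone, with no block, it was 0.41 (unadjusted limma p 0.0384, adjusted p 0.416). After cyclic loess and median centring the difference was 0.00 and 0.02.

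Pax9 (18511_at) was at 4.48, 3.73 and 3.40 in the dorsal and at 3.72, 3.61 and 3.58 in the ventral arrays. Here dorsal array 1 was the highest and dorsal array 3 the lowest, so the dorsal array that was high in Pax1 was not the one high in Pax9. The means were 3.87 ± 0.55 and 3.63 ± 0.08 (SD, n = 3 each), a difference of -0.23 with a 95% interval from -0.81 to 0.34 and a limma adjusted p of 0.732. Without dorsal array 1, with no block, the difference was 0.07. Neither Pax1 nor Pax9 exceeded the receptor percentile in any array, including the 3 dorsal arrays cut beside the notochord.

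Meox1 and Meox2, which are needed together for somite patterning, with Meox2 also acting in limb muscle, had values that overlapped between the regions. Meox1 (17285_at) was at 3.27, 3.96 and 3.99 in the dorsal and at 3.66, 3.49 and 3.33 in the ventral arrays. Dorsal array 1 was the lowest of all 6 and the other dorsal arrays the highest. The difference was -0.25, with a 95% interval from -0.87 to 0.38 and a limma adjusted p of 0.741. Its size rested on single arrays: the difference was -0.57 without the 2 arrays numbered 1, -0.13 without number 2 and -0.04 without number 3. With no block it was -0.48 without dorsal array 1 (unadjusted limma p 0.0309, adjusted p 0.345), -0.14 without dorsal array 2, -0.12 without dorsal array 3 and -0.16 without ventral array 3. Meox2 (17286_at) was at 2.35, 2.55 and 2.40 in the dorsal and at 2.74, 2.47 and 2.61 in the ventral arrays. It was among the dimmest members and brighter than no more than 28.2% of genes in any array. The difference was 0.17, with a 95% interval from -0.28 to 0.62 and an adjusted p of 0.747 in limma.

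**Figure D2:**
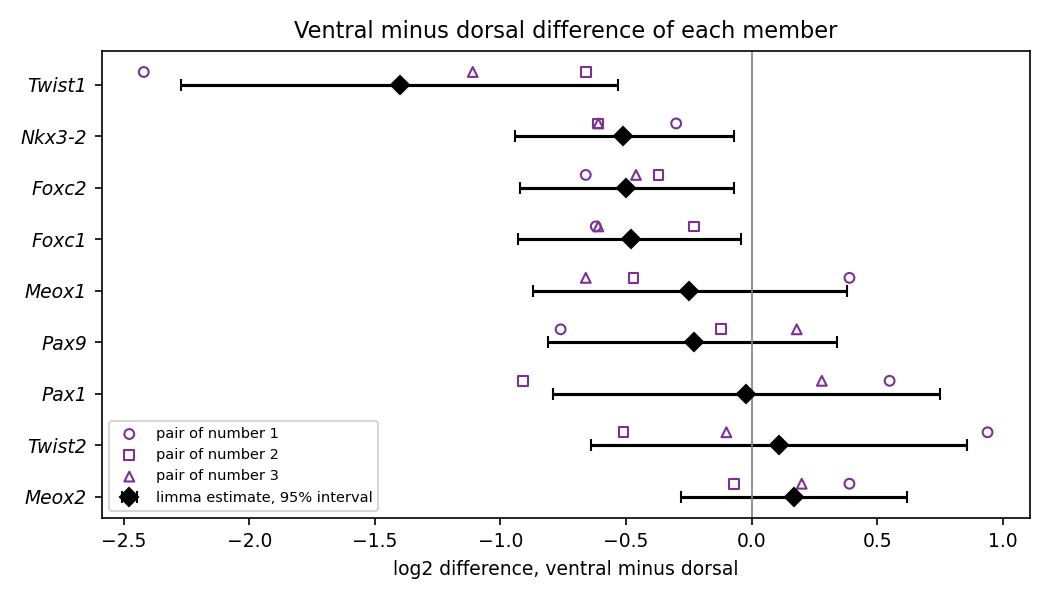
Log2 difference, ventral minus dorsal (horizontal axis), of each member: diamonds with bars are limma estimates with 95% intervals, and open symbols are the differences within the 3 pairs of equal number. The intervals of Twist1, Nkx3-2, Foxc2 and Foxc1 lie below 0, and all 3 of their pair differences are negative, while the other 5 intervals include 0.

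At an unadjusted limma p under 0.05, 4 of the 9 members (Twist1, Foxc2, Nkx3-2 and Foxc1) were higher in dorsal tissue, where 5.90% of all genes were. In ventral tissue 0 of the 9 were higher at that limit, where 4.32% of all genes were. The regions did not overlap for 3 of the 9 members, all dorsal-higher, where 12.0% of all genes did so. The members are few and were chosen with earlier results of these data known, so these shares describe the list and carry no test. Without the block the count was 3, against 6.84% of all genes, and without ventral array 1 as well it was 2 (Foxc2 and Twist1), against 4.08%. With the block, leaving out both arrays of number 1 left 2 members (Nkx3-2 and Twist1; 4.88% of all genes), number 2 left 2 (Foxc1 and Twist1; 4.26%) and number 3 left Twist1 alone (4.21%). With no block, 2 members (Foxc2 and Twist1) were left without dorsal array 2 (7.17% of all genes) or dorsal array 3 (7.0%), and Twist1 alone without ventral array 3 (4.64%). Without dorsal array 2, 1 member (Pax1, difference 0.41) was also under that limit with a higher ventral level. In that fit 2843 of 24675 genes were under it in either direction, 62.3% of them dorsal-higher. The count was 4 without dorsal array 1 (8.47%), where Meox1 took the place of Foxc2, and 3 without ventral array 2 (3.83%). The count of dorsal-higher members therefore lay between 1 and 4 by the arrays used, and 1 of 9 is close to the share of all genes. Twist1 was under 0.05 in each of the 16 alternatives run. The median log2 difference of the 9 members was -0.25, against -0.06 for all genes, and 77.8% of members against 58.0% of all genes had a negative difference. Over all genes with an unadjusted p under 0.05, the dorsal-higher share was 57.8%, and 47.6% after cyclic loess and 46.5% after median centring.

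The mean log2 signal over the 9 members was 3.89, 4.15 and 3.98 in dorsal arrays 1, 2 and 3, and ventral arrays 1, 2 and 3 followed with 3.61, 3.71 and 3.66. Every dorsal array thus lay above every ventral array on this mean, and the same held for the mean over all 24675 genes, at 3.37 to 3.39 in the dorsal and 3.32 to 3.36 in the ventral arrays. Without Twist1, which had the largest difference of the 9, the mean over the other 8 was 3.55, 3.87 and 3.65 in dorsal arrays 1, 2 and 3 and, in the same order, 3.54, 3.46 and 3.43 in ventral arrays, so that dorsal array 1 and ventral array 1 were nearly level.

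**Figure D3:**
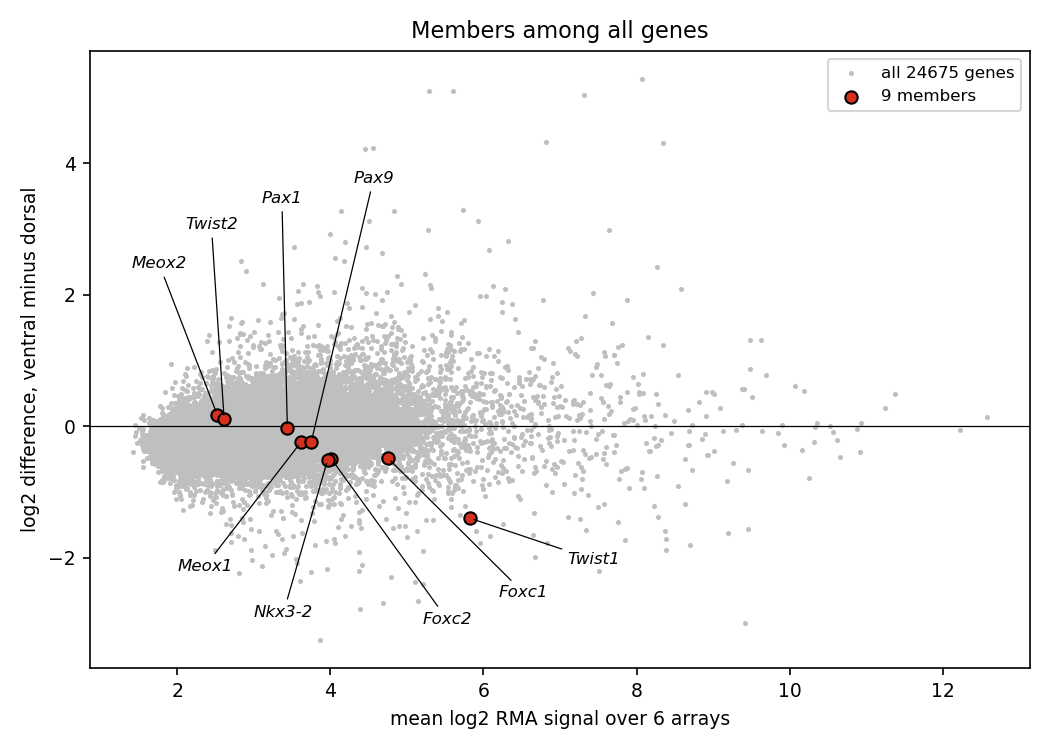
Log2 difference, ventral minus dorsal (vertical axis), against the mean log2 RMA signal over 6 arrays (horizontal axis) for all 24675 genes in grey and the 9 members in red. Twist1, at a mean of 5.82 and a difference of -1.40, is the lowest of the members, where the lowest difference of all genes is -3.25. The other 8 members lie nearer to a difference of 0.

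Each paralogue pair was compared within arrays, as the log2 signal of 1 gene minus that of the other. For Twist1 minus Twist2 this was 4.49, 3.58 and 3.81 on the dorsal side and 1.13, 3.43 and 2.80 on the ventral side. All dorsal values were above all ventral values, and the mean moved by -1.51 from dorsal to ventral tissue. The size of this shift rested on ventral array 1: it was -0.84 without that array and -0.58 without both arrays numbered 1, and Twist2 itself may lie near background. The two-sided exact permutation p over the 6 arrays was 0.1, the smallest possible, and 0.4 after Benjamini-Hochberg adjustment over the 4 pairs compared. For Foxc1 minus Foxc2 the dorsal mean was 0.73 ± 0.46 and the ventral mean 0.75 ± 0.47 (SD, n = 3 each), a shift of 0.01 (exact permutation p 1.0). For Meox1 minus Meox2 the shift was -0.42 (exact permutation p 0.3) and for Pax1 minus Pax9 it was 0.21 (exact permutation p 0.7). With arrays left out, the shift ranged from -0.25 to 0.26 for the Foxc pair, from -0.63 to -0.20 for the Meox pair and from -0.36 to 0.71 for the Pax pair. The dorsal arrays disagreed most in the Pax pair, at -1.55, 0.59 and -0.29, against -0.24, -0.20 and -0.18 in the ventral arrays.

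Members were also set against each other over the 6 arrays, which share 1 scaling and the regional difference, so the correlations are descriptions. Of the 36 pairs of members, 21 had a positive Pearson r, and the median was 0.11. The 6 pairs among Twist1, Foxc1, Foxc2 and Nkx3-2 ranged from 0.31 (Foxc1 with Foxc2) to 0.89 (Foxc1 with Twist1). The shared regional difference entered these pairs unevenly. After the mean of each region was taken out, Foxc1 with Twist1 was at 0.76 and Nkx3-2 with Foxc1 at 0.75 (0.88 before). Nkx3-2 with Twist1 was then at 0.19 (0.75 before), Foxc2 with Twist1 at -0.28 (0.60) and Foxc1 with Foxc2 at -0.73. Nkx3-2 with Foxc2 was at -0.96 (0.40 before). In words, dorsal array 1 had the highest Foxc2 and the lowest dorsal Nkx3-2 value. The lowest r of all pairs was -0.90, between Twist1 and Meox2.

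Among 3412 named protein-coding genes with a mean of at least 4, the genes most like each of the brighter members over the 6 arrays were listed by Pearson r, without a test. For Twist1 they were Btbd35f12 (r = 0.992), the transcription factor Creb1 (0.970), the lactate dehydrogenase subunit Ldhb (0.970), Dolpp1 (0.968) and the autophagy receptor Sqstm1 (0.961). For Foxc1 they were Naxe (0.990), Btf3 (0.981), the proteasome ATPase Psmc4 (0.977), the calpain Capn5 (0.969) and E4f1 (0.964), and for Foxc2 Ctxn1 (0.998), Imp3 (0.985), the histone demethylase Kdm4a (0.972), Samd4 (0.970) and Mettl9 (0.970). No member of the somite lists was among the 15. With only 6 arrays and this many genes, high values arise for many genes.

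Of other genes of sclerotome and early cartilage none passed the test. Of 17 measured genes 13 (76.5%) had a negative log2 difference, where 58.0% of all genes did, the median was -0.22, against -0.06 for all genes, and the lowest limma adjusted p was 0.437. Pdgfra, a receptor of mesenchymal cells, was at 2.93, 3.60 and 3.28 in the dorsal and at 2.45, 2.84 and 2.74 in the ventral arrays, without overlap. Uncx, a homeobox factor of the posterior sclerotome, had means of 4.25 ± 0.34 and 3.60 ± 0.32 (SD, n = 3 each), and Scx, a factor of tendon progenitors from sclerotome, 3.86 ± 0.43 and 3.31 ± 0.05. Tbx22, a T-box factor of sclerotome and palate, was at 3.38 ± 0.24 and 2.81 ± 0.25. In 4 of the 17 genes the regions did not overlap, all dorsal-higher, where 12.0% of all genes did so. Only Pdgfra, 1 of the 17, had an unadjusted p under 0.05 with a higher dorsal level, which is near the 5.90% of all genes.

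Genes of the other somite compartments also had more negative than positive differences, and none passed the test. The same lean held for all genes, of which 58.0% had a negative difference, with a median of -0.06. Of 14 dermomyotome and myotome genes 9 (64.3%) had a negative difference with a median of -0.03 (0.01 after median centring), and 0 were under an unadjusted p of 0.05, where 10.2% of all genes were in either direction. En1, a homeobox factor of the central dermomyotome, had means of 2.60 and 3.04 in dorsal and ventral tissue, Dmrt2, a dermomyotome factor, 3.58 and 3.98, Six4, a homeobox factor of muscle precursors, 3.10 and 2.77, and Lbx1, a factor of migrating muscle precursors, 3.08 and 2.75. Of 14 genes of presomitic mesoderm and segmentation 10 (71.4%) had a negative difference, with a median of -0.22, the same median as that of the sclerotome and cartilage genes. Hes7, the oscillating repressor of the segmentation clock, was at 3.19, 5.15 and 4.28 in the dorsal and at 3.32, 2.87 and 3.16 in the ventral arrays, so 1 dorsal array lay within the ventral range. Mesp1, a factor of early mesoderm, had means of 3.29 ± 0.18 and 2.73 ± 0.21 (SD, n = 3 each), Ripply1, a repressor at the somite boundary, 2.97 and 2.59, and Msgn1, a factor of presomitic mesoderm, 4.57 and 4.31. Of the 14, 2 (Mesp1 and Hes7) had an unadjusted limma p under 0.05 with a higher dorsal level, where 5.90% of all genes did. The regions did not overlap for 2 of the 14, dorsal-higher in each, where 12.0% of all genes did so. The lowest adjusted p of the presomitic list was 0.480 in limma.

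The hedgehog pathway, which induces Pax1, Pax9 and Nkx3-2, had 9 of 12 measured genes (75.0%) with a negative difference and a median of -0.09, close to the -0.06 of all genes. Sufu, an inhibitor of Gli factors, had a dorsal mean of 3.50 ± 0.14 and a ventral mean of 3.14 ± 0.17 (SD, n = 3 each). Ptch1, the receptor and target of hedgehog, was at 4.23, 4.44 and 3.29 in the dorsal and at 4.36, 3.79 and 3.21 in the ventral arrays, with overlap. The coreceptor Gas1 had means of 3.15 and 3.00, and Gli3, mainly a repressor, 3.61 and 3.77. The lowest adjusted p of this list was 0.514.

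Partners and antagonists of Twist proteins and other mesenchymal factors split evenly, 9 of 18 negative and 9 positive, with a median of 0.08. The regions did not overlap for 2 of the 18 with dorsal higher, where 12.0% of all genes did so. They did not overlap for 2 of the 18 with ventral higher, where 1663 of 24675 genes did so. Id4, an inhibitor of helix-loop-helix factors, was at 4.26, 4.34 and 4.25 in the dorsal and at 3.72, 3.64 and 3.54 in the ventral arrays. The regions were separated by 0.52, and the dorsal level was 1.57-fold higher, with an unadjusted rank of 510 of all genes and a limma adjusted p of 0.437. Id4 exceeded the receptor percentile in no array. Id2, another such inhibitor, had the opposite sign, with means of 4.54 ± 0.59 and 5.54 ± 0.93 (SD, n = 3 each). Ventral array 3 was at 6.62 for Id2, against 4.11 to 5.21 in the other arrays, and the regions overlapped. Tcf3, which encodes the E proteins that pair with Twist1, had a dorsal mean of 3.82 ± 0.21 and a ventral mean of 4.30 ± 0.50. Its value was 4.88 in ventral array 1, and its ventral values lay above the dorsal ones by a gap of 0.02. Alx4, a homeobox factor of mesenchyme, had means of 3.98 and 3.42.

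Markers of splanchnic mesoderm, which could enter the ventral cut, had means of 3.85 to 4.01 in dorsal and 3.72 to 3.92 in ventral arrays over 9 genes, 6 with a negative and 3 with a positive difference. Foxf2, a forkhead factor of gut mesenchyme, was 1.63-fold higher dorsally with a limma adjusted p of 0.444, while Gata6, a zinc-finger factor of visceral mesoderm, was 1.36-fold higher ventrally with a limma adjusted p of 0.560. Gata6 overlapped between the regions, with dorsal array 1 at 2.73 and the other arrays at 3.76 to 4.98. Foxf1, the paralogue of Foxf2, had dorsal and ventral means of 4.16 and 3.76, and Hand1, a factor of lateral mesoderm, 4.46 and 4.22. Nephric and coelomic markers, 8 genes, had means of 3.35 to 3.41 in dorsal and 3.30 to 3.39 in ventral arrays. Pax8 and Pax2, paired-box factors of the nephric lineage, had dorsal and ventral means of 3.08 and 2.61 and of 3.46 and 3.17. Lhx1, a nephric homeobox factor, had means of 2.72 and 3.03, and Osr1, a factor of intermediate mesoderm, 2.90 and 3.44. The lowest limma adjusted p of the nephric list was 0.484.

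**Figure D4:**
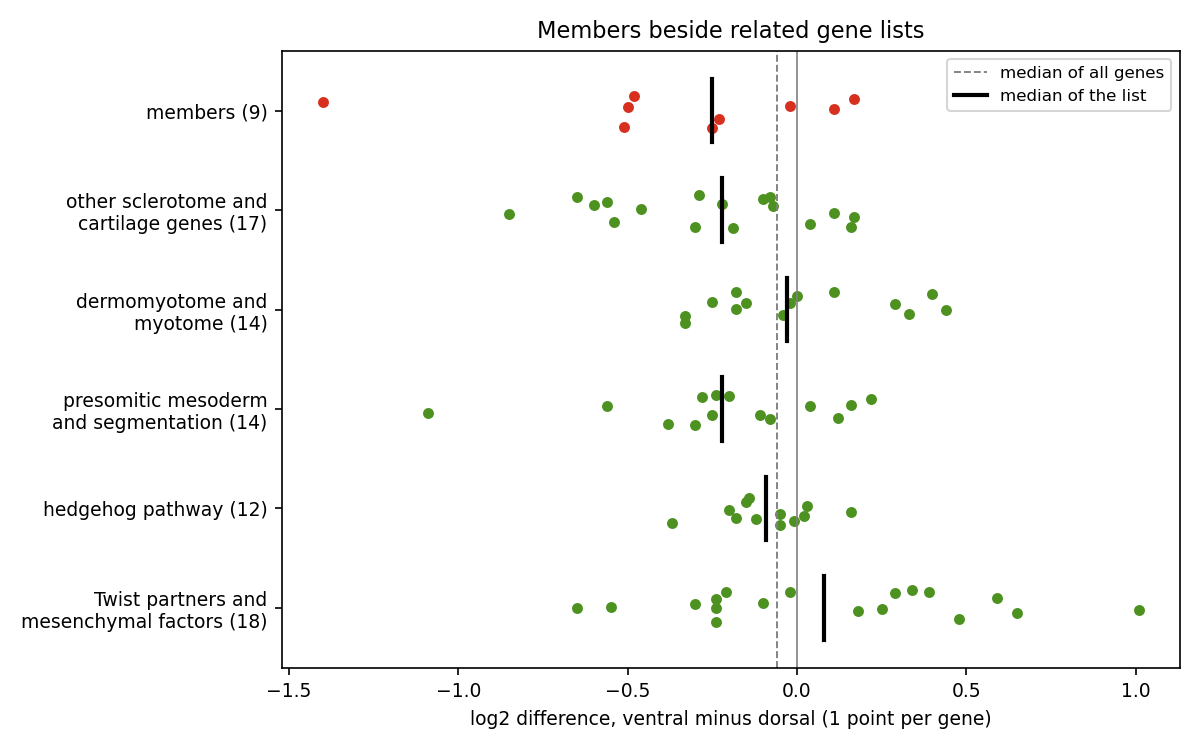
Log2 difference, ventral minus dorsal (horizontal axis, 1 point per gene), for the 9 members in red and 5 related lists in green, with the list's median as a black bar and the median of all genes, -0.06, as a dashed line. The medians are -0.25 for the members, -0.22 for other sclerotome and cartilage genes and for presomitic genes, -0.03 for dermomyotome and myotome (0.01 after median centring), -0.09 for the hedgehog pathway and 0.08 for Twist partners.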

How the data were processed

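The deposited table holds log2 RMA signals, 1 value per probe set and array, which the authors made with Affymetrix Expression Console and RMA, per the submitters' processing notes, without versions. Their range, 0.97 to 12.9, gave the log base, which is not stated, nor is the genome build. Of 25429 probe sets, 24675 had exactly 1 gene symbol and were tested; the 754 not in the platform annotation were left out. The regions were compared in limma 3.58.1 (R 4.3.3), by lmFit and eBayes, with the replicate number as a block, two-sided, with Benjamini-Hochberg adjustment over all genes and a threshold of 0.05. No dim genes were removed. The fit was tested on simulated data. The labels number 3 biological replicates per region. The p-values reflect the spread of these arrays only, whose number limits the precision. Alternatives were the fit without the block, other scalings, filters on dim genes, an intensity trend, array weights and leaving out arrays. The members and lists were chosen with earlier results of these data known. All members are named; of each other list, genes past the threshold or else the 4 with the smallest unadjusted p; and, for members with a mean of at least 4, the 5 genes with the highest r.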

Additional observations from a re-analysis of the deposited data

How the results depend on the processing

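No member passed an adjusted p of 0.05 under any of the 16 alternatives, and of 140 member values 130 kept their direction. The lowest adjusted p was 0.251 in limma, for Nkx3-2. Differences ranged over the alternatives from -1.76 to -0.89 for Twist1, -0.66 to -0.40 for Nkx3-2, -0.59 to -0.35 for Foxc2 and -0.67 to -0.30 for Foxc1. With arrays left out, Pax1 ranged from -0.31 to 0.42, Pax9 from -0.47 to 0.07, Meox1 from -0.57 to -0.04 and Twist2 from -0.31 to 0.42. The paralogue shifts with arrays left out and the members' mean without Twist1 were chosen after seeing the data. Direction reversed for Pax1 after cyclic loess (0.00), median centring (0.02), array weights (0.01), without number 2 (0.42) and without dorsal array 2 (0.41). It also reversed for Pax9 without number 1 (0.03) and dorsal array 1 (0.07), and for Twist2 without number 1 (-0.31), dorsal array 1 (-0.11) and ventral array 1 (-0.09). The median of the members was -0.48 under both filters on dim genes, which remove Meox2 and Twist2, and between -0.42 and -0.21 when arrays were left out. Limma called 1 gene without the replicate block and 0 to 5 when arrays were left out. The labels do not say that equal numbers mean the same embryo, and the deviations of equally numbered arrays from their region's mean correlated at 0.04, -0.01 and 0.06 across genes. The block changed no member's call. The cause of these changes was not tested. Detection was not measured, so 7 members that never exceeded the receptor percentile may lie near background. The same limit applies to Id4, Pdgfra, Tbx22, Scx, Uncx, Foxf2, Pax8, Mesp1, Alx4 and Sufu, which exceeded it in no array. Among others, Ptch1, Gas1, Gli3, Ripply1, En1, Dmrt2, Six4, Lbx1, Lhx1, Osr1, Pax2 and Foxf1 also exceeded it in no array.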
